A study of Tribolium castaneum with 17 samples.

Results

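Levels of 5 gene models of the red flour beetle, *Tribolium castaneum*, were described across embryos, gonads and adult bodies. The genes were TC030997, TC008514, TC009052, TC015380 and TC033031, which are listed in the paper on this series as counterparts of genes transcribed early by the embryo itself. They were chosen by identifier alone and made up 5 of the 12302 gene models in the expression table. TC015380 is given there as the homolog of the *Drosophila melanogaster* gene FBgn0033464. The others carry no gene name in the files, so no function is assigned to them here. In these libraries all 5 genes had their lowest mean level in embryos of 0-5 hr, and 4 of the 5 were below every adult library in all 6 embryo libraries. A rise from 0-5 hr to 6-11 hr was called for 1 of the 5, TC015380, in the main test. That call was lost when any of several single libraries was left out, and tests on read counts also called TC030997. The genes are referred to below as the 5 listed genes.

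A newly laid insect egg carries messenger RNA made by the mother during oogenesis, and its own genome is at first almost silent. During the maternal-to-zygotic transition the maternal RNAs are cleared and the embryo begins to transcribe its own genes, so an early zygotic gene in the strict sense is scarce in ovary and fresh eggs and rises afterwards. A gene can meet that description and still be used at a far higher level in adult tissue, which is why each gene was read in ovary, testis and body as well as in embryos.

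The 17 libraries were made from poly(A) RNA of wild-type GA2 beetles kept at 25 °C and fall into 6 groups. Libraries S1 to S3 hold embryos collected at 0-5 hr and S4 to S6 those collected at 6-11 hr, in pools of 80 to 100. The adult libraries come from 30 beetles each, taken 4 days after eclosion. Testis is represented by S16 and S17, ovary of virgin females by S13 to S15, the male carcass by S10 to S12 and the female carcass by S7 to S9, where a carcass is the body left once the gonads are removed. No group carried a transgene, mutation or treatment, and each embryo group spans several hours of development and every cell type of the egg. In such bulk samples, fewer cells that use a gene and less RNA per cell cannot be told apart.

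Library depth ran from 18664366 to 34847471 reads in gene models. Levels are TMM normalized CPM, read counts scaled to library size, in which 1 read was worth 0.0217 to 0.0595 CPM. TMM is a scaling that lets the bulk of genes match between libraries. Markers named by the study were highest in the labelled group for 3 of 3 in testis, 2 of 2 in carcass and 2 of 2 in embryo, but for 0 of 3 in ovary. The summed level of the 3 ovary markers was 564.2 to 676.2 CPM in ovary and 102.5 to 133.2 CPM in testis, against 279.2 to 324.8 CPM in female carcass and 1355 to 1441 CPM in embryos of 0-5 hr, so those markers separated the gonads without singling out the ovary. The 3 testis markers summed to 5691 to 7288 CPM in testis, 156.7 to 420.6 CPM in male carcass and 3.18 to 7.29 CPM in female carcass. Library S6 stood apart from S4 and S5. Larval serum protein 2 homolog TC005375, a gene of the older embryo, had 78.4 CPM in S4 and 82.6 CPM in S5 but 6.79 CPM in S6. S6 is therefore given separately throughout.

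TC015380 was the gene with the clearest rise within the embryo. At 0-5 hr it had 0.183, 0.266 and 0.342 CPM in S1, S2 and S3, from 6, 9 and 12 reads. At 6-11 hr it had 7.12 CPM in S4 and 8.16 CPM in S5, from 204 and 242 reads, and 1.39 CPM in S6, from 30 reads. All 3 later libraries were above all 3 earlier ones. The 95% counting interval of S6, 0.941 to 1.99 CPM, lay above the highest upper bound at 0-5 hr, 0.597 CPM. The S4 and S5 mean was 29.0 times the 0-5 hr mean, and S6 was 5.29 times that mean.

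In adults TC015380 had 31.8, 28.3 and 32.0 CPM in the female carcass libraries and 28.5, 15.5 and 31.1 CPM in male carcass. Ovary had 3.45, 5.66 and 5.41 CPM. Testis had 61.1 CPM in S16 and 29.7 CPM in S17, so S16 was above every other library and S17 lay within the range of the carcasses. The ovary libraries were below the other 8 adult libraries and below S4 and S5. This was the only one of the 5 genes for which any embryo library reached an adult level, since S4 and S5 exceeded all 3 ovary libraries.

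TC030997 also rose in S4 and S5, but S6 stayed with the early embryos. It had 1.22, 1.42 and 1.28 CPM at 0-5 hr (40, 48 and 45 reads). At 6-11 hr S4 had 7.71 CPM and S5 had 6.78 CPM (221 and 201 reads), while S6 had 1.53 CPM (33 reads), with a counting interval of 1.06 to 2.15 CPM that overlapped those of the early libraries. S4 and S5 averaged 5.54 times the early mean and S6 was 1.17 times it.

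In adults TC030997 lay between 10.9 and 24.1 CPM. Female carcass had 16.1, 18.9 and 17.5 CPM and male carcass had 17.8, 11.9 and 14.02 CPM. Ovary had 10.9, 12.0 and 12.1 CPM, and testis had 24.1 and 18.0 CPM. Each adult group overlapped its neighbour in the order testis, female carcass, male carcass, ovary. The ranges separated only at the steps from ovary to 6-11 hr embryos and from those to 0-5 hr embryos.

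TC008514 was present throughout and changed little within the embryo. It had 22.6, 27.7 and 23.8 CPM at 0-5 hr and 29.6, 31.0 and 25.7 CPM at 6-11 hr. S4 and S5 were above the early libraries and S6 fell inside their range. Female carcass had 566.8, 486.5 and 563.1 CPM, and male carcass had 296.3, 297.4 and 450.9 CPM. Ovary had 80.5, 66.3 and 82.5 CPM, and testis had 688.5 and 465.1 CPM. Ovary was below every other adult library and above every embryo library, and the female carcass range lay above that of male carcass.

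TC009052 had the same order of groups as TC008514. Its 0-5 hr libraries had 3.33, 3.25 and 2.93 CPM and its 6-11 hr libraries had 2.79, 4.08 and 2.79 CPM. The early range lay inside the later one, with S4 and S6 below it and S5 above it. Female carcass had 76.2, 87.6 and 86.3 CPM, and male carcass had 49.4, 67.7 and 65.7 CPM. Ovary had 19.1, 16.7 and 20.2 CPM, and testis had 104.9 and 108.3 CPM. Ranges of neighbouring groups separated at every step of the order except between the embryo stages.

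TC033031 was close to the limit of detection in embryos. It had 0.0306, 0.236 and 0.171 CPM at 0-5 hr, from 1, 8 and 6 reads, and 0.488, 0.776 and 0.0465 CPM at 6-11 hr, from 14, 23 and 1 reads. S5 had a counting interval of 0.492 to 1.16 CPM, above the upper bound of every early library, whereas that of S4, 0.267 to 0.820 CPM, overlapped the interval of S2. The single read of S6 did not separate it from any early library. Female carcass had 11.1, 3.87 and 7.35 CPM, and male carcass had 8.86, 12.4 and 7.98 CPM. Ovary had 3.42, 3.06 and 3.75 CPM, and testis had 11.8 and 9.18 CPM. Ovary was again below the other 8 adult libraries, by a narrow margin from the female carcass library S8.

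**Figure D1:**
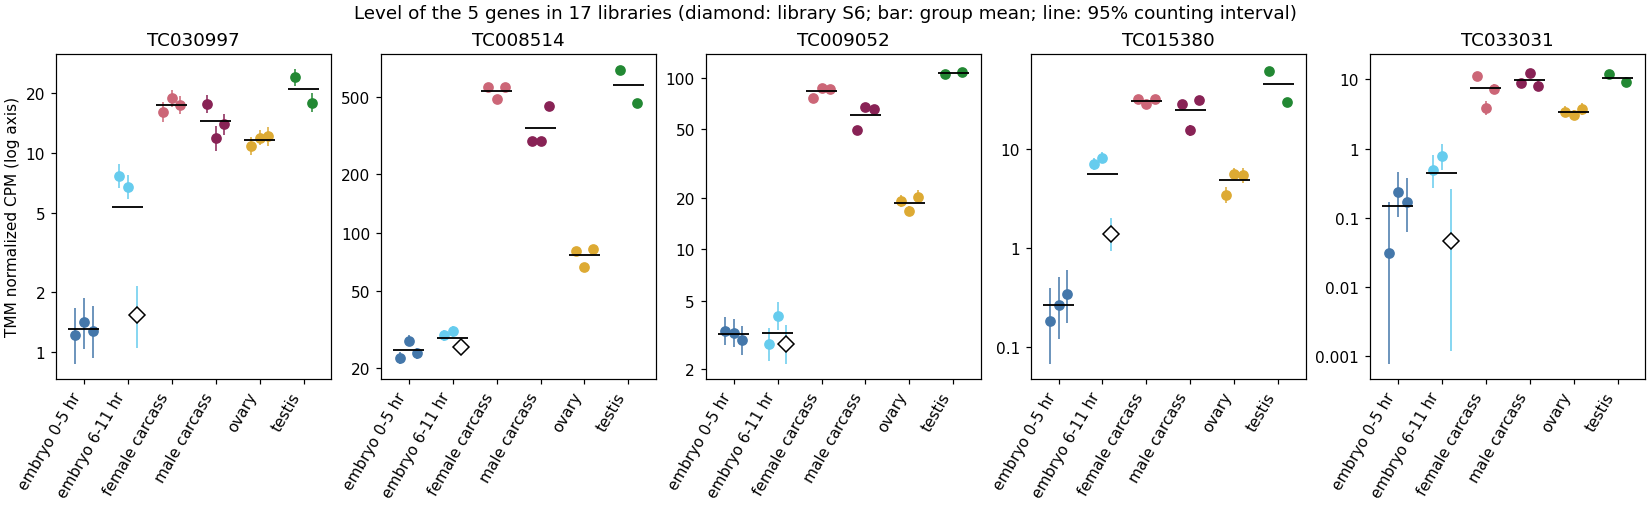
TMM normalized CPM of each of the 5 listed genes (1 panel per gene, log axis of its own) in the 17 libraries, grouped by sample type; points are libraries, the open diamond is S6, black bars are group means and thin lines are 95% counting intervals. Embryo libraries sit below all adult libraries in 4 of 5 panels, testis has the highest mean in 5 of 5 panels, and S4 and S5 of TC015380 reach 7.12 and 8.16 CPM, above the ovary libraries.

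The adult mean over 11 libraries exceeded the embryo mean over 6 libraries by 4.74 times for TC030997, 8.51 times for TC015380, 13.8 times for TC008514, 20.0 times for TC009052 and 25.8 times for TC033031. Testis had the highest group mean for 5 of 5 genes, against 24.5% of the 12152 genes tested, and embryos of 0-5 hr had the lowest for 5 of 5, against 30.2%. Testis was separated from the next group only for TC009052, so the testis lead in the other 4 genes was within the spread of the libraries. All 6 embryo libraries were below all 11 adult libraries for 4 of 5 genes, against 23.7% of genes tested. The same order without S6 held for those 4 genes, because S6 was never the highest embryo library. All 5 genes passed the low-level filter of 5 CPM in 3 or more libraries, TC033031 with 7 adult libraries and no embryo library at that level, and TC009052 with 11 adult libraries and none from embryos.

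The stage comparison asked which genes had more RNA at 6-11 hr than at 0-5 hr. It was made with limma, a linear model fitted to log2(CPM + 1) for all genes and libraries together, and a gene was called at a difference of 1 or more on the log2 scale (2-fold) with a Benjamini-Hochberg adjusted p under 0.01. Adding 1 CPM shrinks the differences of low genes, which applies here to TC030997, TC015380 and TC033031. The median gene was 0.14 higher at 6-11 hr.

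TC015380 was called higher at 6-11 hr, with a log2 difference of 2.16 (SE 0.42, limma adjusted p = 0.00240), or 2.02 relative to the median gene. By size of difference it ranked 78 among all 12152 genes tested. TC030997 had a difference of 1.27 (SE 0.34, limma adjusted p = 0.0156) and was not called. The count was thus 1 of 5 higher, where 2.03% of genes tested were called higher, and 0 of 5 lower, where 2.11% were. The study named all 5 genes on these same libraries as significantly up-regulated at 6-11 hr. The count and rank are thus not independent evidence of direction. Differential expression in the study was called with edgeR, at a 2-fold change and a false discovery rate under 0.01, not with the limma fit used here. The study also placed the 5 genes in a co-expression cluster described as expressed in both embryo stages but not in its other samples. In the values given here the adult levels of these genes were mostly above their embryo levels.

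The remaining genes gave no call and small estimates on this scale. TC033031 differed by 0.30 (95% interval -0.32 to 0.91, limma adjusted p = 0.531), an estimate shrunk by the added 1 CPM, as every embryo library was below 1 CPM. For TC008514 the difference was 0.21 (interval -0.16 to 0.58, limma adjusted p = 0.437), which leaves out a 2-fold rise. TC009052 differed by 0.00 (interval -0.32 to 0.33, limma adjusted p = 0.996), which leaves out a 2-fold change in either direction.

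The number of genes called depended on single libraries. Without S6 TC030997 was called, at 1.84 (limma adjusted p = 9.91e-06), and TC015380 rose to 2.77 (limma adjusted p = 2.93e-05), while TC033031 stayed uncalled at 0.51 (limma adjusted p = 0.276). The call of TC015380 was lost without S1 (adjusted p = 0.0123), S2 (0.0101), S4 (0.0169) or S5 (0.0162), and its difference stayed between 1.80 and 2.77 whichever library was left out. A count model on the reads recovered from the values, edgeR's quasi-likelihood test, called both TC015380 (4.38, adjusted p = 0.000247) and TC030997 (2.03, adjusted p = 0.00300), and gave 1.60 for TC033031 (adjusted p = 0.122). Over all genes that test called 754 higher and 283 lower, against 247 and 256 with limma. For TC033031, edgeR's likelihood ratio test gave 1.59 (adjusted p = 0.0419) and DESeq2 1.60 (adjusted p = 0.0444), neither of them a call.

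Every library of 6-11 hr was above every library of 0-5 hr for 2 of 5 genes, TC030997 and TC015380, against 32.7% of genes tested. With S6 set aside, S4 and S5 were both above the early libraries for 4 of 5, all but TC009052, against 47% of genes tested. In S4 and S5, 95 genes had a larger mean rise than TC015380 and 303 had a larger one than TC030997. The study named both genes for a rise on these same libraries, and S6 was set aside with its values known. These ranks are therefore not independent evidence of a rise.

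**Figure D2:**
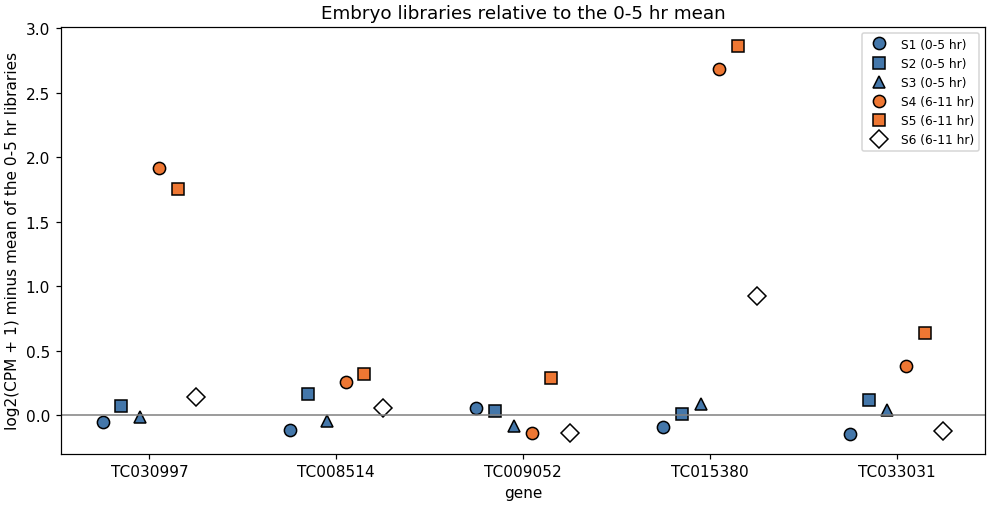
Level of each gene in the 6 embryo libraries on the log2(CPM + 1) scale, minus the mean of S1, S2 and S3; blue symbols are 0-5 hr, orange symbols S4 and S5, and the open diamond S6. TC030997 and TC015380 separate S4 and S5 from the early libraries by averages of 1.84 and 2.77, S6 lies near the early libraries for TC030997 and between the sets for TC015380, and TC008514 and TC009052 stay near 0.

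The position of S6 was read over all genes as well. Genes counted as higher or lower if the S4 and S5 mean lay 1 or more log2(CPM + 1) units from the early mean. Among the 995 higher genes, S6 lay a median of 19.2% of the way from the early to the S4 and S5 mean. The quartiles were 5.41% and 33.7%. TC015380, at 33.3%, lay near the upper quartile of that set, and TC030997, at 7.42%, near the lower one. Among the 228 genes lower in S4 and S5 by the same rule, S6 had gone a median of 118.7% of the way. S6 therefore had early-like levels of rising genes together with late-like levels of falling ones. Its part in the stage results beyond the values given here was not tested.

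Comparison with the adult groups asked where else the genes were used. Embryos of 0-5 hr were called lower than ovary for 5 of 5 genes (background 30.2% of genes tested), than testis for 5 of 5 (36.9%), than female carcass for 5 of 5 (36.2%) and than male carcass for 5 of 5 (39.3%). Embryos of 6-11 hr were lower than ovary for 4 of 5 (28%), than testis for 5 of 5 (34.4%), than female carcass for 5 of 5 (35.4%) and than male carcass for 5 of 5 (37.9%). The count called higher in 0-5 hr embryos was 0 of 5 against ovary (8.8% of genes tested), testis (21.9%), female carcass (26.1%) and male carcass (27.5%). At 6-11 hr it was again 0 of 5 against ovary (11.9%), testis (22.7%), female carcass (27%) and male carcass (28.2%). These comparisons share their embryo and adult libraries and are not independent of each other. Nor are they independent of the low-level filter for TC009052 and TC033031, which passed it through adult libraries alone.

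Against ovary, the source of maternal RNA, the 0-5 hr embryos were lower by log2 differences of -2.46 for TC030997 (SE 0.34, limma adjusted p = 1.10e-05), -2.24 for TC009052, -2.19 for TC015380, -1.95 for TC033031 and -1.59 for TC008514. The median gene differed by -0.05 in that comparison. The order of the genes depends on the added 1 CPM, which shrinks low genes most. With edgeR's quasi-likelihood test the differences were -4.50 for TC033031, -4.18 for TC015380 and -3.16 for TC030997. They were -2.57 for TC009052 and -1.64 for TC008514, and all 5 were called. With 5 CPM added in place of 1, TC015380 and TC033031 lost the call.

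At 6-11 hr the mean of TC015380 was near that of ovary, at -0.03 (SE 0.42, 95% interval -0.93 to 0.87, limma adjusted p = 0.948). The interval leaves out a difference of 1 on this scale, but no 6-11 hr library was itself at the ovary level. S4 and S5 had 7.12 and 8.16 CPM, above the ovary range of 3.45 to 5.66 CPM, and S6 had 1.39 CPM, below it. Without S6 the estimate was 0.59 and still uncalled. TC030997 was lower than ovary, at -1.19 (SE 0.34, limma adjusted p = 0.00529), but at -0.62 without S6, where it was no longer called, and the call was also lost without any 1 of the ovary libraries S13, S14 and S15. TC008514, TC009052 and TC033031 were lower than ovary at -1.38, -2.23 and -1.65.

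The largest differences were from testis and the carcasses. At 0-5 hr the log2 difference from testis was -5.11 for TC015380 (SE 0.47, limma adjusted p = 8.03e-08), -4.69 for TC009052, -4.47 for TC008514, -3.32 for TC033031 and -3.24 for TC030997. At 6-11 hr it was -2.96, -4.69, -4.26, -3.02 and -1.97 in the same order of genes. Both stages were set against the same testis mean, so the change between them repeats the stage differences given above and adds no evidence. It was largest for TC015380 and TC030997, whereas TC009052 kept its difference. The 0-5 hr embryos differed from female carcass by -2.79 (TC033031) to -4.65 (TC015380), and from male carcass by -2.74 (TC030997) to -4.31 (TC015380). The order again depends on the added 1 CPM. With edgeR's quasi-likelihood test the 0-5 hr differences of TC033031 were -6.11 from testis, -5.61 from female carcass and -6.00 from male carcass. Those of TC015380 were -7.40, -6.83 and -6.53. Without S6 the 6-11 hr difference of TC030997 from male carcass was -0.90 and was not called.

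Lower in both embryo stages than in each of the 4 adult groups were 4 of 5 genes, all but TC015380, against 14.1% of genes tested. Among them, TC009052 and TC033031 passed the filter of 5 CPM through adult libraries alone. Their place in this count is therefore not independent of the filter. The count was 3 without TC030997, whose call at 6-11 hr against ovary was also lost with edgeR's quasi-likelihood test (adjusted p = 0.0176), with RLE factors (0.0221) and with only the groups compared in the limma fit (0.0421), and it was 2 with 5 CPM added and 1 at a log2 threshold of 2. The reverse pattern, higher in both stages than in each adult group, was shown by 0 of 5 genes and 4.07% of genes tested. The 2 carcass markers summed to 31.7 to 40.5 CPM in embryos against 999.6 to 1179 CPM in carcasses, and the 3 testis markers to 14.98 to 21.8 CPM in embryos against 5691 to 7288 CPM in testis. They were likewise low in embryos, and their part in the differences was not tested.

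**Figure D3:**
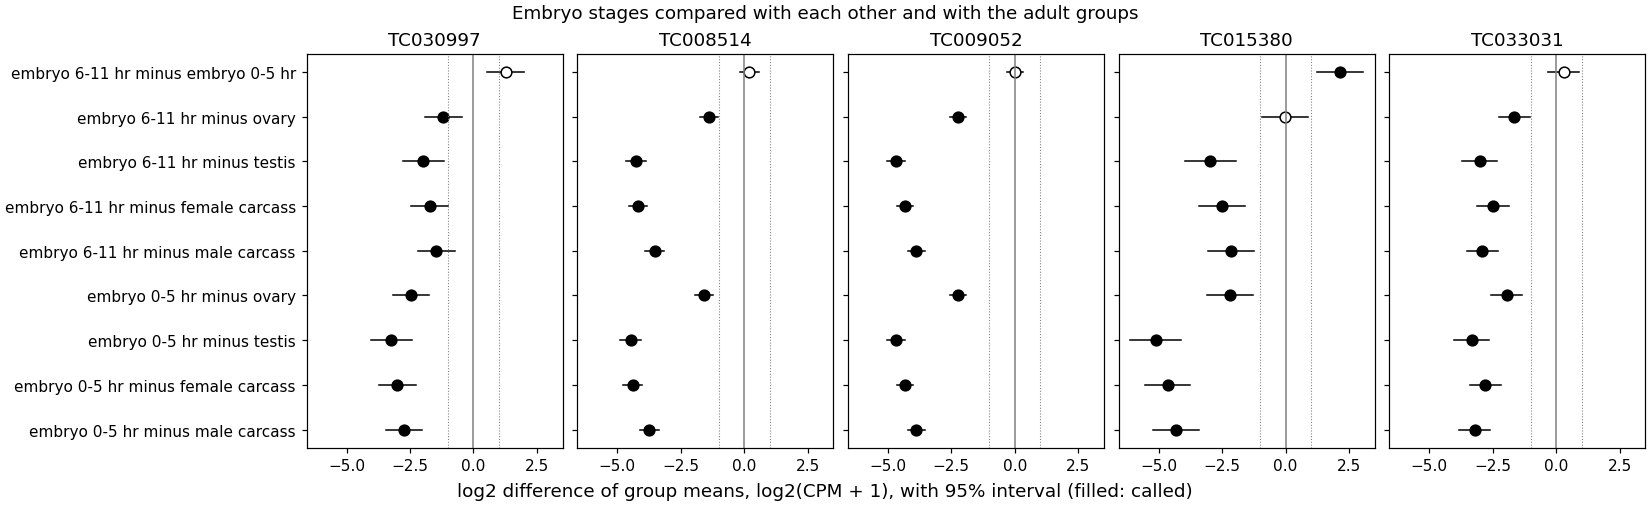
Differences of group means on the log2(CPM + 1) scale, with 95% intervals, for each gene (panels) between the embryo stages and between each stage and each adult group (rows); filled points were called and open points were not, and dotted lines mark 1 and -1. The 0-5 hr points lie left of the line at -1 in every panel, and the 6-11 hr point of TC015380 against ovary lies at -0.03.

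Among the adult groups the question was whether the genes differed between gonad and body and between sexes, a pattern for which the study did not state that it picked them. Of 30 gene and group pairs, 11 were called, and all 11 involved ovary. Calls were also common over all genes in most of these pairs. The pooled count is therefore not read as a result, and the share of genes tested is given for each pair. Ovary was lower than female carcass for 3 of 5 genes (25.3% of genes tested), lower than male carcass for 4 of 5 (26.9%) and lower than testis for 4 of 5, where 22.1% of genes tested were higher in testis. In the opposite direction, 0 of 5 genes were higher in ovary than in female carcass (19.8%), male carcass (19.6%) or testis (21.1%).

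Testis exceeded ovary by 2.93 for TC015380 (SE 0.47, limma adjusted p = 5.37e-05), 2.88 for TC008514 (SE 0.19, limma adjusted p = 3.07e-09), 2.45 for TC009052 (SE 0.17, limma adjusted p = 4.52e-09) and 1.37 for TC033031 (SE 0.32, limma adjusted p = 0.00145). TC030997 differed by 0.79 (interval -0.02 to 1.60, limma adjusted p = 0.0757). The SE and p-values here rest on a spread estimated over all 17 libraries, S6 included, and not over adult libraries alone. The call of TC033031 was lost without S16 (1.21, adjusted p = 0.0194) and with edgeR's quasi-likelihood test (1.61, adjusted p = 0.0203).

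Against female carcass, ovary was lower at -2.80 for TC008514, -2.46 for TC015380 and -2.10 for TC009052. TC033031 differed by -0.85 (limma adjusted p = 0.0155) and was called only without S8, at -1.19, S8 being its lowest female carcass library. Against male carcass, ovary was lower at -2.15, -2.12 and -1.64 for TC008514, TC015380 and TC009052, and at -1.27 for TC033031 (limma adjusted p = 0.000990), whose call was lost with edgeR's quasi-likelihood test (-1.50, adjusted p = 0.0176). TC030997 differed from the carcasses by -0.54 and -0.28, with neither called.

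TC008514, TC009052 and TC015380 were thus lower in ovary than in each of the other 3 adult groups, as were 6.06% of genes tested. In terms of libraries, ovary was below the other 8 adult libraries for 4 of 5 genes, against 13.7%. Scaling by library totals in place of TMM moved the median gene from -0.03 to -0.63 between testis and ovary and from 0.05 to 0.74 between ovary and female carcass. It changed the genes called higher and lower in testis than in ovary from 2687 and 2560 to 1666 and 4498. Those higher and lower in ovary went from 2404 and 3071 to 4963 and 1917 against female carcass, and from 2387 and 3265 to 4413 and 2354 against male carcass. TC008514, TC009052 and TC015380 kept their calls under that scaling. TC033031 lost both of its calls, with testis minus ovary at 0.83 (limma adjusted p = 0.0296) and ovary minus male carcass at -0.78 (limma adjusted p = 0.0213), and TC030997 turned to 0.15 against female carcass and 0.27 against male carcass, neither called.

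Differences between testis and the carcasses were below the 2-fold threshold for every gene in the main fit. None of the 5 genes was called between testis and male carcass, where 27.5% of genes tested were higher and 30.2% lower, or between testis and female carcass, where 27.1% were higher and 32.8% lower. TC009052 was higher in testis than in male carcass by 0.81 (SE 0.17, limma adjusted p = 0.000412) and TC008514 by 0.73 (SE 0.19, limma adjusted p = 0.00262), both past the p threshold and short of the 2-fold one. TC008514 reached 1.01 and was called without S17. The 2 carcass markers were at 48.7 to 57.0 CPM in sum in testis, against 999.6 to 1179 CPM in the carcasses.

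Between the carcasses of the sexes 0 of 5 genes were called, against 5.13% of genes tested higher in males and 0.0658% lower. Male carcass minus female carcass was -0.65 for TC008514 (SE 0.17, limma adjusted p = 0.0227) and -0.46 for TC009052 (SE 0.15, limma adjusted p = 0.0670), with ranges that did not overlap, while the other 3 genes differed by -0.34 to 0.42. The testis markers that male carcass carried are given above, and their part in these values was not tested.

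The contrast of gonad with carcass was also compared between the sexes in 1 test, as testis minus male carcass less ovary minus female carcass. It was called higher for 3 of 5 genes, TC008514, TC009052 and TC015380, against 18.7% of genes tested, and lower for 0 of 5, against 15.3%. With library totals the genes called higher and lower in this contrast went from 2276 and 1864 to 1201 and 4101, and the 3 calls held. For each count of 0 given here with limma, both edgeR tests and DESeq2 also called 0 genes, and 0 genes had an unadjusted limma p under 0.05 in that direction, except 2 in testis over male carcass and 2 in female carcass over male carcass, TC008514 and TC009052 in both.

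**Figure D4:**
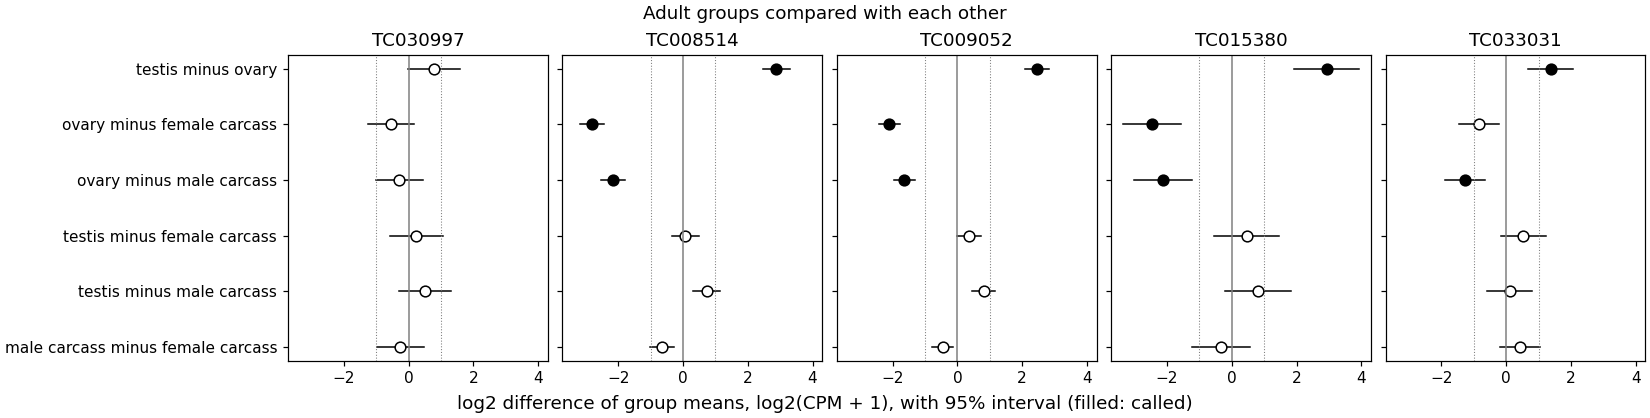
Differences of group means on the log2(CPM + 1) scale, with 95% intervals, for each gene (panels) between pairs of the 4 adult groups (rows); filled points were called and dotted lines mark 1 and -1. All 11 filled points lie in the 3 rows that involve ovary, and the rows without ovary hold only open points.

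Genes with the most similar profile were sought by Pearson correlation of log2(CPM + 1) over the 17 libraries, which share depth, scaling and the broad split between embryos and adults. For TC015380 they were TC032839 (r = 0.984), TC031560 (0.980) and TC008017 (0.970), and 160 genes exceeded 0.9. TC030997 was closest to TC009970 (0.973), TC011114 (0.971) and TC033122 (0.970), with 322 genes over 0.9. TC008514 was closest to TC010206 (0.991), TC014125 (0.990) and TC014498 (0.990), with 847 over 0.9, and TC009052 to TC014092 (0.994), TC011689 (0.990) and TC000797 (0.990), with 917. TC033031 was closest to TC032951 (0.981), TC015358 (0.981) and TC007940 (0.980), with 768. No listed gene was among the 3 closest to another.

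Among the 5 genes the most alike pair was TC008514 and TC009052, with r = 0.985 over 17 libraries and 0.977 over the 11 adult ones. The other pairs ran from 0.859 to 0.958 over all libraries. Within adults the lowest was TC030997 and TC033031, at 0.485 against 0.894 over all libraries, while TC008514 and TC015380 went from 0.919 to 0.965 and TC009052 and TC015380 from 0.888 to 0.930. The other pairs were lower in adults than over all libraries.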

How the data were processed

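RNA of 17 libraries in 6 groups was analysed. The authors deposited a signal table of 12302 gene models in TMM normalized CPM, for which reads were aligned with HISAT2 2.0.5, counted with BEDTools, scaled with edgeR and filtered at 5 CPM in 3 samples. Whether counting used strand is not given in the sources used here. Dividing each library by its smallest value above 0 gave whole reads, within 0.01 read, for 100% of 209134 values. Depth ran from 18664366 to 34847471 reads. Intervals are exact Poisson intervals at 95% and cover counting error only.

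Genes at 5 CPM in 3 or more libraries (12152) were tested with limma 3.58.1 in R 4.3.3 on log2(CPM + 1) with trended, robust variance, with all 17 libraries in 1 fit. The 15 pairs of groups were compared, together with the difference between sexes in the contrast of gonad and carcass. Calls needed a log2 difference of 1 and a Benjamini-Hochberg adjusted p under 0.01. The test was also run on simulated data. No outcome of that check is given here, so it is not used as evidence for the calls. This holds above all for genes with low levels in embryos and for comparisons that include S6. Embryo replicates were independent collections. For adults only separate pools of beetles are stated, and p-values measure the spread between libraries. The fit estimates a single spread per gene over all groups, so S6 also enters the p-values of comparisons between adult groups. RNA extraction and library preparation were done together for all samples, per the study's methods.

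The alternatives were edgeR 4.0.16 (quasi-likelihood and likelihood ratio) and DESeq2 1.42.0 on recovered reads, RLE factors, library totals, other added values (0.1 and 5), other thresholds, no filter, only the groups compared, and leaving out each library. Members, markers and tests were chosen with earlier results of these data known. Named genes were the 5 members, the 3 most correlated gene models of each and markers named by the study. Of 12282 TC identifiers 1 matched the reference table, and 0 of the 5 members did, so no sequence or position is given.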

Additional observations from a re-analysis of the deposited data

Results flagged for a closer look

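For 3 of the 5 genes the difference between gonad and carcass was not the same in the sexes, by a test of that difference itself. The value tested was the log2 difference between testis and male carcass minus that between ovary and female carcass. It was 3.53 for TC008514 (SE 0.26, limma adjusted p = 6.08e-08), 3.27 for TC015380 (SE 0.63, limma adjusted p = 0.000465) and 2.91 for TC009052 (SE 0.23, limma adjusted p = 1.05e-07). In each of these genes testis was above male carcass by less than the 2-fold threshold (0.73, 0.81 and 0.81 in that order). That difference passed the p threshold for TC008514 (limma adjusted p = 0.00262) and TC009052 (limma adjusted p = 0.000412). For TC015380 its 95% interval was wide, at -0.20 to 1.81. Ovary was far below female carcass (-2.80, -2.46 and -2.10). TC030997, at 1.05 (limma adjusted p = 0.0926), and TC033031, at 0.95 (limma adjusted p = 0.0751), were not called. The same contrast was called higher in 18.7% and lower in 15.3% of genes tested with TMM, as 2276 and 1864 genes, and in 1201 and 4101 genes with library totals, so its balance over all genes turned with the scaling. The calls of these 3 genes held under library totals. TC033031 was called without female carcass library S8 (adjusted p = 0.00871), and TC030997 at 1.05 (adjusted p = 0.00213) in the fit without S6. S6 takes no part in this contrast, so leaving it out kept the TC030997 value and changed the spread estimated in the fit.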

How the results depend on the processing

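Only TC015380, and TC030997 when S6 is set aside or reads are tested, carried the stage result, and TC033031 rested on 1 to 23 reads in each embryo library. The count of genes higher at 6-11 hr than at 0-5 hr was 1, and it became 2 with edgeR's quasi-likelihood test, its likelihood ratio test, DESeq2, RLE factors and an adjusted p of 0.05, and 0 with 5 CPM added and with only the groups compared in the fit, ranging from 0 to 2 when single libraries were left out. Over all genes the 247 called higher became 1181 with the likelihood ratio test, 1173 with DESeq2, 775 with RLE factors, 598 with 0.1 CPM added, 474 at an adjusted p of 0.05, 74 with 5 CPM added and 63 with only the groups compared, and the 256 lower became 177 with 5 CPM added. The count lower at 6-11 hr than in ovary was 4, against 2 with 5 CPM added and 1 at a log2 threshold of 2, and that at 0-5 hr was 5, against 3 under each of these. The count lower in ovary than in male carcass was 4, against 2 at a log2 threshold of 2. The other counts against testis and the carcasses, and the 11 adult calls in all, stayed within 1.5 times. Library totals changed the genes higher and lower than ovary at 6-11 hr from 1441 and 3407 to 643 and 4028, and at 0-5 hr from 1069 and 3671 to 551 and 4072. Against female carcass they changed them from 3278 and 4304 to 4385 and 3733 at 6-11 hr and from 3166 and 4399 to 4460 and 3904 at 0-5 hr, against testis at 0-5 hr from 2661 and 4490 to 3602 and 3842, and between stages from 247 and 256 to 192 and 299.

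Signs turned only in values that were not called. TC015380 at 6-11 hr against ovary became 0.20 with the quasi-likelihood test, 0.19 with the likelihood ratio test, 0.28 with DESeq2 and with RLE factors and 0.040 with 5 CPM added, and ran from -0.38 to 0.59 without single libraries. TC009052 between stages became -0.045 with library totals and ran from -0.14 to 0.075 without single libraries. TC030997 in ovary became 0.15 against female carcass and 0.27 against male carcass with library totals. Leaving out single libraries gave -0.058 to 0.28 for TC033031 between testis and male carcass, and -0.21 to 0.36 for TC008514 and -0.042 to 0.97 for TC015380 between testis and female carcass. Of 1360 values without a library, 1336 kept their direction and side of the threshold, as did 833 of 880 under the other alternatives. The cause of these changes was not tested. No paired analysis was possible because each library carries its own number and no number is shared between groups.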
